A study of Mus musculus with 20 samples.

Results

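The 10 genes described here encode the transcription factors that drive and maintain the fat cell program, and they were listed by function, with earlier results of these data known. They are Pparg, Cebpa, Cebpb, Cebpd, Rxra, Klf15, Klf4, Stat5a, Stat5b and Zfp423, and all 10 were present among the 14776 genes of the deposited table. RNA was sequenced from the epididymal white adipose tissue (eWAT), the fat pad beside the epididymis, of 20 male C57BL/6J mice. The 6 NC mice were kept on maintenance feed, the 7 HFD mice ate feed in which fat supplied 60% of the energy and were gavaged with saline, and the 7 SZ-A mice ate that diet and received Ramulus Mori (Sangzhi) alkaloids, an extract of mulberry twig, by gavage at 400 mg per kg per day. The diets began at 6 weeks of age and ran for 14 weeks before treatment and for the 6 weeks of treatment. The mice were fasted overnight before the tissue was taken. Whether NC mice were also gavaged is not clear from the sources, so HFD and NC mice may differ in gavage as well as diet. HFD mice are an obesity model made by diet alone, without a transgene. The comparisons ask how the high-fat diet altered these factors in eWAT and whether SZ-A treatment of HFD mice altered them again.

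Adipogenesis runs as a cascade of transcription factors. C/EBPβ and C/EBPδ act early and induce PPARγ and C/EBPα, which then maintain each other and switch on the genes of lipid storage and insulin response. PPARγ binds DNA as a pair with RXRα, KLF4 and STAT5 act upstream of the cascade, KLF15 acts late in it, and ZFP423 marks cells committed to the adipocyte lineage. In mature white fat PPARγ and C/EBPα remain abundant in the adipocytes, which need not be their only source. C/EBPβ, C/EBPδ and KLF4 are also made by immune, vascular and stromal cells.

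FPKM, the unit of all levels below, counts sequenced fragments after division by gene length and library total, so that levels of different genes can be set side by side. Differences are given on the log2(FPKM + 1) scale, which understates the change of low genes. A gene was said to rise or fall when its Benjamini-Hochberg adjusted p from limma, over all genes tested, was under 0.05. The reads behind the FPKM, recovered from the gene lengths, came to between 13567667 and 19388628 per mouse, and no value of the 10 factors rested on fewer than 80 reads.

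The library labelled NC replicate 6 did not look like eWAT. The summed level of 9 adipocyte markers was 203 FPKM in it, against 2789 to 7321 FPKM in the other NC mice, and Adipoq was at 26.6 FPKM against at least 859 FPKM. Of 12 epididymis markers only Lcn2, Adgrg2, Spint2 and Krt18 were in the table, which lists only genes above 0 in every mouse. Their sum was 3542 FPKM in NC replicate 6 and 5.33 to 10.2 FPKM in HFD mice. It also exceeded 200 FPKM in NC replicates 1 and 2, at 694 and 246 FPKM, and in SZ-A replicates 2 and 7, at 562 and 294 FPKM. Adgrg2, however, was at 420 FPKM in NC replicate 6 and at 5.69 to 30.0 FPKM in NC replicates 1 to 5. Krt18 reached 454 FPKM and Spint2 203 FPKM among NC replicates 1 to 5. Whether NC replicates 1 and 2 hold epididymis was not tested. Each factor's difference of HFD from NC mice is therefore given with and without NC replicate 6. The counts of factors and of list genes are also given without all libraries above 200 FPKM, a choice made after the data were seen.

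**Figure D1:**
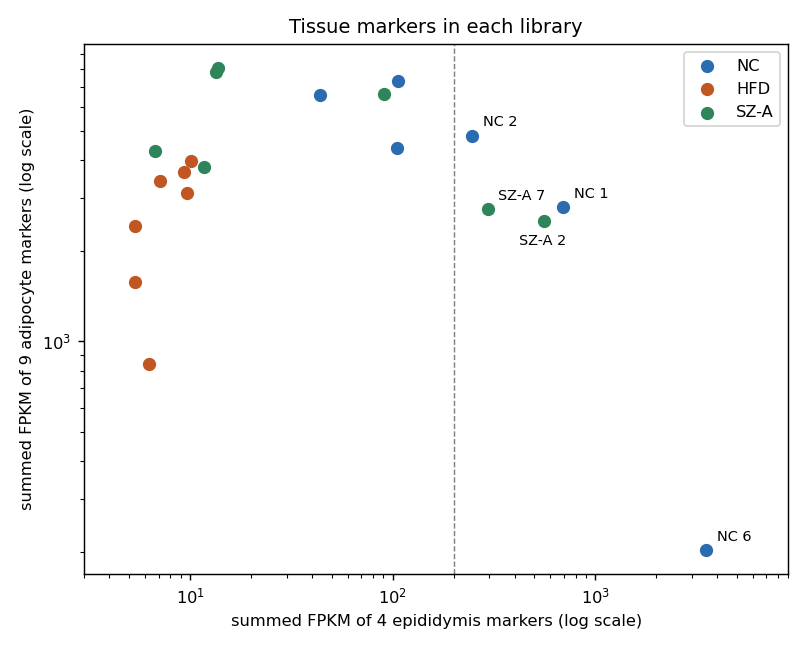
Each point is a mouse, with the summed FPKM of 4 epididymis markers on the horizontal log axis, that of 9 adipocyte markers on the vertical log axis, and a dashed line at 200 FPKM. NC replicate 6 sits alone at 203 FPKM of adipocyte markers and 3542 FPKM of epididymis markers, and the HFD mice all lie between 5.33 and 10.2 FPKM of epididymis markers.

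Cebpa was the most abundant of the factors in every group. Its mean level over the 5 other NC mice was 210 FPKM, while HFD mice had 222 FPKM and SZ-A mice 264 FPKM, and the gap to the next factor exceeded the larger of both SDs in each group. Pparg came next in NC mice at 68.5 FPKM, while Cebpb came next in HFD and SZ-A mice at 71.3 and 88.7 FPKM. Stat5a, Zfp423 and, in HFD mice, Klf15 were the lowest. Klf15 ranked 6 of 10 in NC mice, 9 with the diet and 7 with SZ-A, and Cebpd moved by as many places with the diet, from 4 to 7, although most neighbors in the order lay within a SD of each other.

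**Figure D2:**
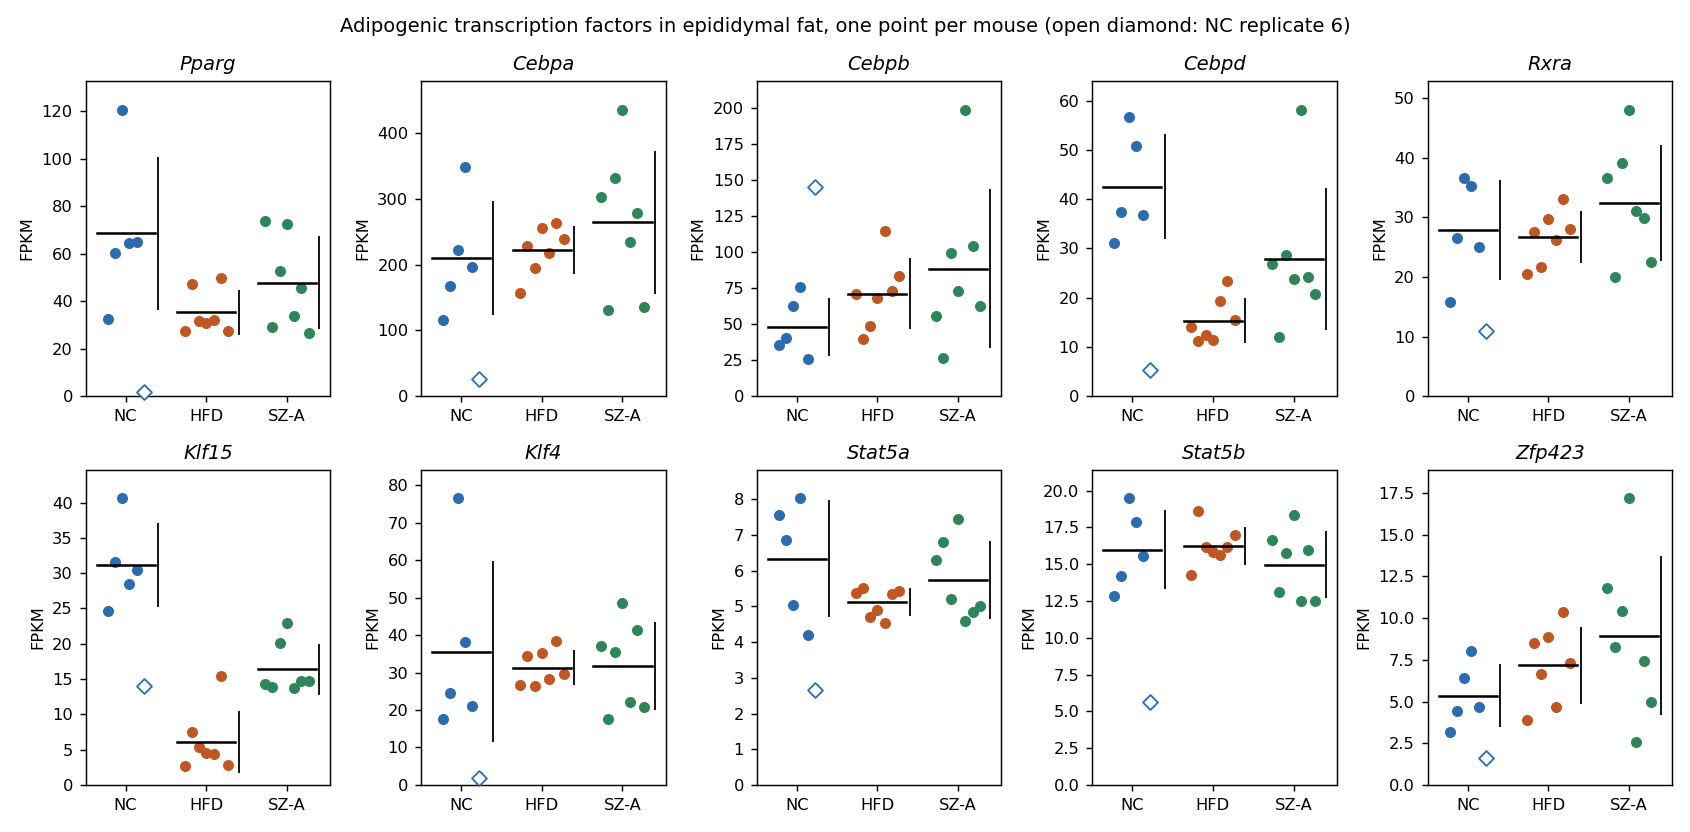
Each panel plots the FPKM of a factor in every mouse, with bars for the mean and vertical lines for the SD of each group, both computed without NC replicate 6 (open diamond). Klf15 separates NC mice at 24.7 to 40.6 FPKM from HFD mice at 2.74 to 15.4 FPKM, and Cebpa, Rxra and Stat5b overlap in all 3 groups.

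Klf15 was the factor that changed most with the diet and with SZ-A. KLF15 is a zinc finger protein of adipocytes, liver and muscle that raises the insulin-responsive glucose transporter gene Slc2a4 and takes part in the control of amino acid and lipid use. The gene (ENSMUSG00000030087) lies on the plus strand at chr6:90462576-90475238 of GRCm38. The 250 bases before its start, chr6:90462326-90462575, are shown because the level of this gene differed between HFD mice and both other groups, with E-boxes (CACGTG) and a CCAAT box in capitals.
Klf15 promoter: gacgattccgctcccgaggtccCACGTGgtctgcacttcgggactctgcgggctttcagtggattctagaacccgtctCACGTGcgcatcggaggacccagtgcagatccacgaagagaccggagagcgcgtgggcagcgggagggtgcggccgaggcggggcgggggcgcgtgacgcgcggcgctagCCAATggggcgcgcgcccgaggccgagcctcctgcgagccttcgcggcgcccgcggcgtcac
The E-boxes lie 223 to 228 and 167 to 172 bases before the start and the CCAAT box 58 to 62 bases before it. Of all 32851 RefSeq promoter windows of this length, 6.02% hold an E-box and 33.8% a CCAAT box on either strand, and no searched motif overlaps another in this sequence.

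In NC replicates 1 to 5 Klf15 stood at 24.7, 31.6, 40.6, 28.5 and 30.5 FPKM, and in NC replicate 6 at 14.0 FPKM. The 7 HFD mice ranged from 2.74 to 15.4 FPKM with a median of 4.46 FPKM. The 7 SZ-A mice ranged from 13.8 to 23.0 FPKM with a median of 14.7 FPKM. Every HFD mouse except HFD replicate 6 was below every SZ-A mouse, and every SZ-A mouse was below NC replicates 1 to 5.

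Klf15 fell in HFD against NC mice by 2.17 (log2, SE 0.33, adjusted p = 0.00017, limma), from a mean of 28.3 ± 8.77 FPKM (SD, n = 6) to 6.09 ± 4.39 FPKM (SD, n = 7). Without NC replicate 6 it fell by 2.35 (SE 0.31, adjusted p = 4.9e-05), and the groups did not overlap. In SZ-A against HFD mice it rose by 1.45 (SE 0.27, adjusted p = 0.0024) to 16.4 ± 3.67 FPKM (SD, n = 7), which is short of the log2 change of 1.5 that the study's methods set as a threshold. The study's results word that threshold as a fold change, which the rise of Klf15 would pass. The fall and the rise in level both passed the adjusted p under every alternative run, but relative to the adipocyte markers, below, neither passed with all mice. With the log2 threshold added, Klf15 made 1 of 10 factors in HFD against NC mice, against 7.97% of all genes, and 0 of 10 were left for SZ-A against HFD, against 0.864%. SZ-A mice stayed below NC mice by 0.72 (95% interval -1.18 to -0.25, adjusted p = 0.080), and by 0.90 without NC replicate 6 (SE 0.17, adjusted p = 0.0073), where the groups did not overlap. HFD and SZ-A are compared with the same NC mice, and SZ-A and NC with the same HFD mice.

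Over the whole list, 1 of 10 factors, Klf15, fell in HFD against NC mice and 0 rose at adjusted p under 0.05 in limma, where 41.1% of all 14706 genes tested passed in either direction and 20.1% fell. At an unadjusted p under 0.05 Cebpd passed too. The share of called factors was thus below the background with all mice. Without NC replicate 6, Klf15, Cebpd and Pparg fell and 0 rose, that is 3 of 10 against 45.2% of all genes in either direction and 22.6% that fell. The same 3 factors fell without NC replicates 1, 2 and 6, where 21.4% of all genes fell. The values of HFD and NC mice did not overlap for 0 of 10 factors with all mice (20.5% of all genes), for Klf15 and Cebpd without NC replicate 6 (25.2%), and for Klf15, Cebpd and Pparg without NC replicates 1, 2 and 6 (34.6%). The median change of all genes was -0.04 in the first 2 of these comparisons and -0.03 in the third.

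**Figure D3:**
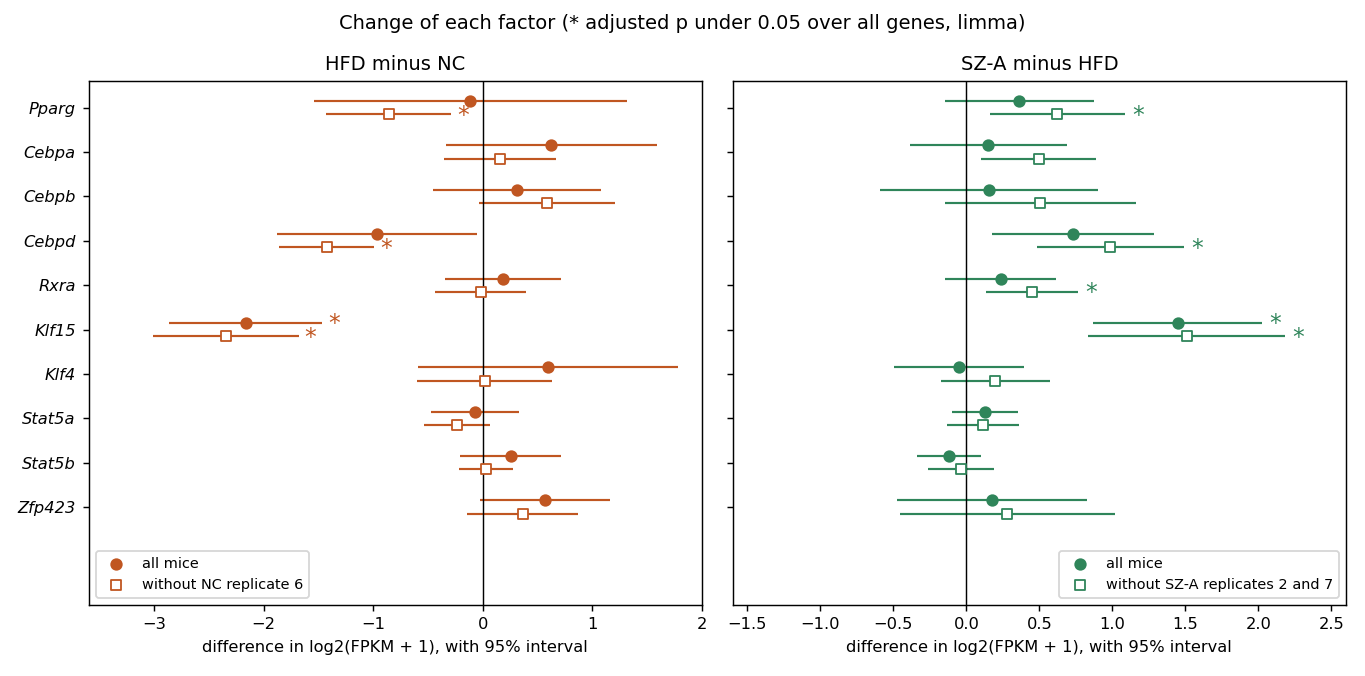
Points are differences in log2(FPKM + 1) with 95% intervals, for HFD minus NC on the left (circles all mice, squares without NC replicate 6) and SZ-A minus HFD on the right (circles all mice, squares without SZ-A replicates 2 and 7), and asterisks mark an adjusted p under 0.05. Klf15 carries an asterisk in all 4 fits, at -2.17, -2.35, 1.45 and 1.51, and the interval of Pparg for HFD minus NC narrows from -1.54 to 1.32 with all mice to -1.43 to -0.29 without NC replicate 6.

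Pparg encodes PPARγ, the nuclear receptor without which fat cells neither form nor survive, and the target of the thiazolidinedione drugs. The gene (ENSMUSG00000000440) spans chr6:115360951-115490399 on the plus strand of GRCm38 and has 3 starts in the RefSeq table. The 250 bases before the third start, chr6:115421816-115422065, are printed because they alone among the windows of Pparg hold C/EBP motifs, the sites of the proteins made by 3 other listed genes. Capitals mark matches of TTGCNNAA and of CCAAT on either strand, which do not overlap.
Pparg promoter, the third start: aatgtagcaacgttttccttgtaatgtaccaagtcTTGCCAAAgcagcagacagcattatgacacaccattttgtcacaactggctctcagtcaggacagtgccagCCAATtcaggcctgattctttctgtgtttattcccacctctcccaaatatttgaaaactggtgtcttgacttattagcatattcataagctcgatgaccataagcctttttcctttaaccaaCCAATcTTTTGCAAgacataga
The C/EBP matches lie 208 to 215 and 9 to 16 bases before the start. Such a match was found in 9.56% of all windows and in 2 of the 15 windows of the factors, those of Pparg and Zfp423. Promoter windows were found for 9 of the 10 factors, and Cebpd was not among them. The letters TTCNNNGAA, bound by STAT5, were in 7.02% of all windows and in 0 of these 15, whereas GGGCGG, the GC box, was in 10 of 15 against 32.7% of all windows.

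Pparg was at 32.4, 60.2, 121, 64.5 and 64.9 FPKM in NC replicates 1 to 5 and at 1.88 FPKM, from 81 reads, in NC replicate 6. In HFD mice it ranged from 27.4 to 50.0 FPKM with a median of 31.7 FPKM, and in SZ-A mice from 26.7 to 73.8 FPKM with a median of 45.4 FPKM. NC replicate 1 and NC replicate 6 lay within or below the range of HFD mice, and the other NC mice above it. With all mice the difference of HFD from NC was -0.11 (95% interval -1.54 to 1.32, adjusted p = 0.91, limma). Without NC replicate 6 Pparg fell by 0.86 (SE 0.26, adjusted p = 0.018), and without NC replicates 1, 2 and 6 by 1.19 (SE 0.24, adjusted p = 0.0024) with no overlap of the groups. NC replicates 1 and 2 had the lowest Pparg of NC replicates 1 to 5, so leaving them out raises the NC mean. In SZ-A against HFD mice the difference was 0.36 (95% interval -0.14 to 0.87, adjusted p = 0.28). It came to 0.62 without SZ-A replicates 2 and 7 (adjusted p = 0.048), the mice with 29.3 and 26.7 FPKM, and that is a rise past the threshold.

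Rxra encodes the partner that PPARγ needs to bind DNA. It lies at chr2:27676440-27762957 (ENSMUSG00000015846) and was at 15.8, 26.6, 36.5, 35.2 and 25.0 FPKM in NC replicates 1 to 5 and 11 FPKM in NC replicate 6. HFD mice ranged from 20.6 to 33.1 FPKM (median 27.6) and SZ-A mice from 19.96 to 48.0 FPKM (median 31.1), so all groups overlapped. The difference of HFD from NC was 0.18 with all mice (adjusted p = 0.58, limma) and -0.02 without NC replicate 6 (95% interval -0.43 to 0.40, adjusted p = 0.95). SZ-A minus HFD was 0.23 (95% interval -0.14 to 0.61, adjusted p = 0.35), and 0.45 without SZ-A replicates 2 and 7 (SE 0.15, adjusted p = 0.039).

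Among the C/EBP genes, Cebpd fell in HFD mice once NC replicate 6 was left out, and Cebpa and Cebpb did not pass the test. C/EBPδ is an early, stress-responsive factor of the cascade, and its gene (ENSMUSG00000071637, chr16:15887286-15891031) overlaps Spidr on the opposite strand. Since the library kit does not mark the strand, reads of both genes cannot be told apart where they overlap. Cebpd stood at 31.0, 37.4, 56.8, 50.8 and 36.8 FPKM in NC replicates 1 to 5 and at 5.28 FPKM in NC replicate 6. HFD mice ranged from 11.2 to 23.4 FPKM (median 14.1) and SZ-A mice from 12.0 to 58.2 FPKM (median 24.2). Apart from NC replicate 6, every NC mouse was above every HFD mouse, while SZ-A mice reached into both ranges. The difference of HFD from NC was -0.96 with all mice (95% interval -1.87 to -0.05, adjusted p = 0.084, limma), and without NC replicate 6 Cebpd fell by 1.42 (SE 0.20, adjusted p = 9.0e-05). SZ-A minus HFD was 0.73 (95% interval 0.17 to 1.28, adjusted p = 0.056). It passed at 0.99 without SZ-A replicates 2 and 7 (SE 0.23, adjusted p = 0.010), where the groups did not overlap, and over all alternatives its adjusted p ran from 0.0022 to 0.21.

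Cebpa encodes C/EBPα, which holds the mature adipocyte state together with PPARγ and is needed for insulin-stimulated glucose uptake. It lies at chr7:35119293-35121928 (ENSMUSG00000034957) and shares bases with the antisense gene Gm45091, from which its reads cannot be separated. Its level was 116, 168, 222, 348 and 197 FPKM in NC replicates 1 to 5 and 26.8 FPKM in NC replicate 6. HFD mice ranged from 158 to 264 FPKM (median 229) and SZ-A mice from 130 to 436 FPKM (median 279). The groups overlapped throughout, and the range of HFD mice was the narrowest. HFD minus NC was 0.63 with all mice (adjusted p = 0.28, limma) and 0.16 without NC replicate 6 (95% interval -0.35 to 0.67, adjusted p = 0.62). SZ-A minus HFD was 0.15 (95% interval -0.39 to 0.69, adjusted p = 0.69).

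Cebpb encodes C/EBPβ, which starts the cascade in precursor cells and also serves in macrophages. It lies at chr2:167688915-167690418 (ENSMUSG00000056501) and overlaps Tmem189 on the opposite strand. Its level was 35.7, 40.4, 62.6, 75.5 and 25.9 FPKM in NC replicates 1 to 5, and at 145 FPKM in NC replicate 6 it was the only factor whose highest NC value was in that library. HFD mice ranged from 39.7 to 115 FPKM (median 71.2) and SZ-A mice from 26.3 to 199 FPKM (median 73.4), the latter in SZ-A replicate 5. HFD minus NC was 0.31 with all mice (adjusted p = 0.51, limma) and 0.59 without NC replicate 6 (95% interval -0.03 to 1.21, adjusted p = 0.11). SZ-A minus HFD was 0.16 (95% interval -0.59 to 0.90, adjusted p = 0.77).

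Klf4, Stat5a, Stat5b and Zfp423 did not pass the test in any of the 3 comparisons, with or without NC replicate 6. Stat5a and Zfp423 did pass in alternative fits, given at the end. KLF4 binds and induces the Cebpb gene early in differentiation and is also a factor of endothelial and smooth muscle cells. Klf4 (ENSMUSG00000003032, chr4:55527143-55532466, minus strand) was at 17.7, 24.5, 76.6, 38.2 and 21.1 FPKM in NC replicates 1 to 5 and at 1.80 FPKM in NC replicate 6. HFD mice ranged from 26.4 to 38.6 FPKM (median 29.8) and SZ-A mice from 17.5 to 48.6 FPKM (median 35.4). Of all factors Klf4 varied most among NC replicates 1 to 5, with a coefficient of variation of 67.9% against 15.0% in HFD mice. HFD minus NC was 0.60 with all mice (95% interval -0.59 to 1.79, adjusted p = 0.41, limma) and 0.02 without NC replicate 6 (95% interval -0.60 to 0.64), and SZ-A minus HFD was -0.05 (95% interval -0.49 to 0.39).

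STAT5A and STAT5B carry signals of growth hormone and prolactin into the nucleus, promote Pparg expression during differentiation, and are near copies of each other. Their genes lie head to head on chromosome 11, 8626 bases apart, Stat5b at chr11:100780731-100850724 (ENSMUSG00000020919, minus strand) and Stat5a at chr11:100859351-100885169 (ENSMUSG00000004043, plus strand). Reads of the shared parts of the pair could have been split or dropped in counting, and Stat5a also overlaps Stat3 on the other strand. Per length Stat5b was the more abundant of the pair, with means of 16.0 against 6.34 FPKM in NC replicates 1 to 5, 16.2 against 5.12 FPKM in HFD and 15.0 against 5.75 FPKM in SZ-A mice. Over the HFD mice they were the steadiest of the factors, Stat5a with 4.53 to 5.53 FPKM and Stat5b with 14.3 to 18.6 FPKM. NC replicate 6 was the lowest of all mice for both, at 2.66 and 5.60 FPKM.

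The intervals for the STAT5 genes were the narrowest in the list. With all mice, HFD minus NC was -0.07 for Stat5a (adjusted p = 0.78, limma) and 0.26 for Stat5b (adjusted p = 0.36). Without NC replicate 6, HFD minus NC was -0.23 for Stat5a (95% interval -0.53 to 0.06, adjusted p = 0.19, limma) and 0.03 for Stat5b (95% interval -0.21 to 0.28, adjusted p = 0.84). SZ-A minus HFD was 0.13 for Stat5a (95% interval -0.10 to 0.35, adjusted p = 0.39) and -0.12 for Stat5b (95% interval -0.34 to 0.10, adjusted p = 0.41). The estimates of the pair thus had opposite signs in both comparisons, and the difference between them was not tested.

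Zfp423 (ENSMUSG00000045333, chr8:87661810-87959595, minus strand) encodes a zinc finger protein of committed preadipocytes that also keeps white adipocytes from turning thermogenic. It was at 3.16, 4.41, 6.39, 8.02 and 4.69 FPKM in NC replicates 1 to 5 and at 1.63 FPKM in NC replicate 6. HFD mice ranged from 3.89 to 10.4 FPKM (median 7.33) and SZ-A mice from 2.55 to 17.2 FPKM (median 8.24). The spread in SZ-A mice, with a coefficient of variation of 53.5%, was wider than in the other groups. HFD minus NC was 0.57 with all mice (95% interval -0.03 to 1.16, adjusted p = 0.12, limma) and 0.36 without NC replicate 6 (adjusted p = 0.22). SZ-A minus HFD was 0.18 (95% interval -0.47 to 0.83, adjusted p = 0.70).

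In SZ-A against HFD mice, 1 of 10 factors, Klf15, rose and 0 fell at adjusted p under 0.05 in limma, where 22.8% of 14695 genes passed in either direction and 9.47% rose. Without SZ-A replicates 2 and 7, the libraries above 200 FPKM of epididymis markers, Klf15, Cebpd, Pparg and Rxra rose, that is 4 of 10 against 11.9% of all genes. These libraries had the lowest SZ-A values of Cebpd, Pparg and Rxra, so leaving them out raises those SZ-A means, and no HFD mouse was left out. After subtraction of group means, over 19 mice without NC replicate 6, Pearson's r with the epididymis markers was -0.61 for Cebpd and -0.59 for Pparg. For Rxra it was -0.60 and for Klf15 -0.09. The values of SZ-A and HFD mice overlapped for every factor with all mice, where 6.08% of genes did not overlap, and were apart for Cebpd without SZ-A replicates 2 and 7, where 12.3% did not. In SZ-A against NC mice 0 of 10 factors passed, where 4.61% of all genes did. Klf15 alone passed there without adjustment, and no factor was free of overlap, where 3.57% of genes were. Without NC replicate 6 it was the single factor that differed, against 0.870% of all genes that were lower, and also the single factor without overlap, against 4.91%.

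In bulk tissue, fewer cells of a type and less RNA per cell cannot be told apart. The summed adipocyte markers were 2789 to 7321 FPKM in NC replicates 1 to 5. HFD mice had 840 to 3983 FPKM of them and SZ-A mice 2509 to 8085 FPKM. In HFD against NC mice 0 of 9 passed with all mice, 4 of 9 fell without NC replicate 6 with a median of -0.96, 5 fell without NC replicates 1, 2 and 6, and in SZ-A against HFD mice 0 of 9 passed with a median of 0.99. Without SZ-A replicates 2 and 7, where Pparg, Rxra and Cebpd also rose, 7 of 9 adipocyte markers rose with a median of 1.30. Summed macrophage markers reached 50.7 to 614 FPKM in NC mice, 2479 to 7632 FPKM with the diet and 1096 to 3631 FPKM with SZ-A, and 9 of 10 rose in HFD and fell in SZ-A mice, with 7 falling without SZ-A replicates 2 and 7. Of 9 markers of fibroblast progenitors, 6 rose and 1 fell in HFD against NC mice, and 7 fell in SZ-A against HFD mice. The counts of both lists for HFD against NC were equal without NC replicate 6 and without NC replicates 1, 2 and 6. All of these markers were above 0 in every mouse, and their part in the levels of the factors was not tested beyond the subtraction given next.

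The factors were therefore also compared relative to the adipocyte markers, after subtraction of the mean log2 level of the 9 markers in the same mouse. All of these markers except Plin4 are also on the list of PPARγ and C/EBPα targets below. A factor near 0 on this scale thus cannot tell adipocyte content from the activity of the factor on its targets. On this scale the median of all genes was itself 0.80 higher in HFD than in NC mice without NC replicate 6, and for SZ-A minus HFD it was -0.89. Without NC replicate 6, Klf15 was lower relative to the markers by 1.51 (adjusted p = 0.0094, limma), as were 0.932% of all genes, and lay 2.30 below the median of all genes. Cebpb was higher by 1.43 (adjusted p = 0.022) and Zfp423 by 1.2 (adjusted p = 0.029), as were 23.7% of all genes, and they lay 0.63 and 0.41 above that median. Pparg was at -0.02 (adjusted p = 0.97) and Cebpd at -0.58 (adjusted p = 0.29) relative to the markers. With all mice 0 of 10 factors passed on this scale at adjusted p under 0.05, where 1.52% of all genes were higher and 0.177% lower, and Klf15 at -2.10 (adjusted p = 0.24) was the 1 factor that passed without adjustment. Without NC replicates 1, 2 and 6, Cebpb was higher (1.58, 37.9% of all genes higher) and Klf15 lower (-1.29, 0.422% lower). Between SZ-A and HFD mice 0 of 10 passed, where 0.0476% of all genes were higher and 24.9% lower, and Klf15 at 0.53 (adjusted p = 0.25) was the only factor above 0, 1.42 above the median of all genes. Klf4 and Stat5b passed there only without adjustment. Without SZ-A replicates 2 and 7, Klf4, Stat5a, Stat5b and Zfp423 were lower by 0.96 to 1.28 relative to the markers, as were 78.7% of all genes.

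**Figure D4:**
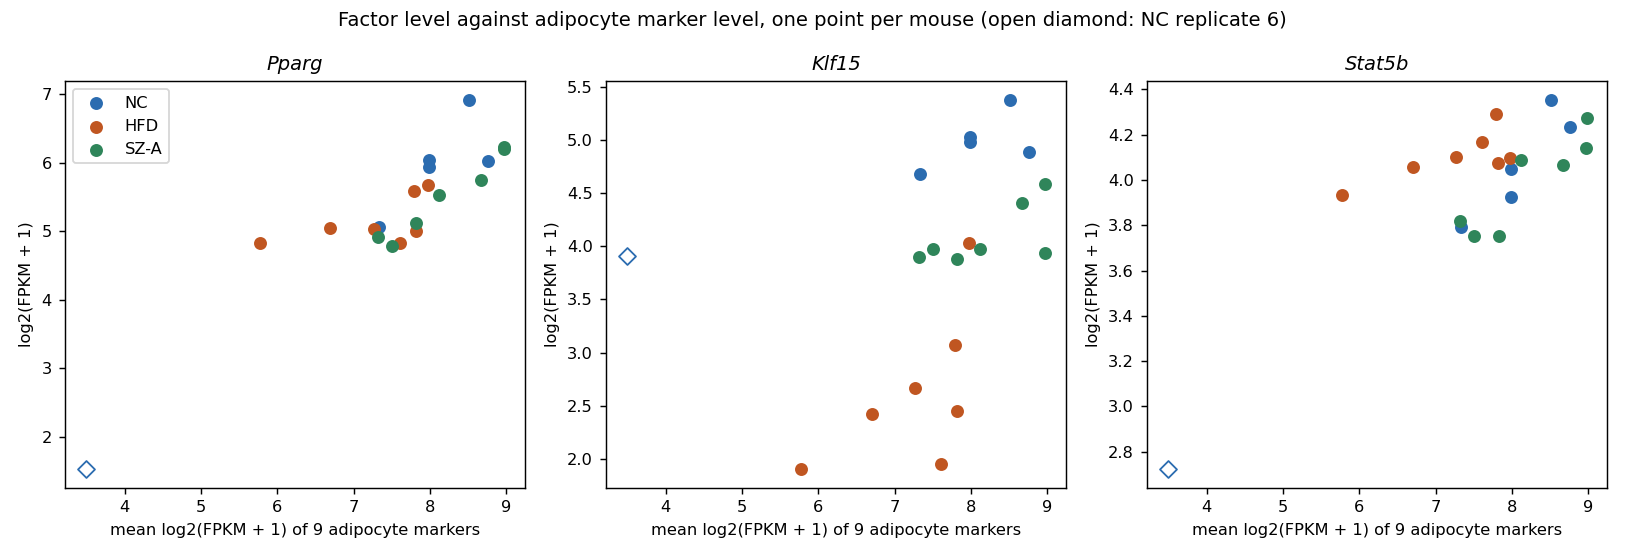
Each panel plots the log2(FPKM + 1) of a factor in every mouse against the mean log2(FPKM + 1) of 9 adipocyte markers, with NC replicate 6 as an open diamond. The 3 groups lie along 1 band for Pparg. For Klf15 the HFD mice, apart from HFD replicate 6 at 15.4 FPKM, lie below the SZ-A and NC mice where marker levels overlap, which they do only in part. Relative to the markers, Klf15 did not pass in limma for SZ-A minus HFD (adjusted p = 0.25) or for HFD minus NC with all mice (adjusted p = 0.24). It passed for HFD minus NC without NC replicate 6 (adjusted p = 0.0094).

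The genes nearest to each factor in their variation between mice of a group were sought among the 12450 genes that averaged 1 FPKM or more, by Pearson's r after subtraction of the group means, over all 20 mice and over 19 mice without NC replicate 6. These r values describe the mice at hand, which share their tissue make-up and library scaling across genes. Zfp423 had the closest neighbors, among them Ttc28 (r = 0.97 and 0.98) and Dmtn (0.96 and 0.96). Cebpa was nearest to Tmem120a (0.98 and 0.96), Phldb1 (0.98 and 0.96) and Rapgef1 (0.97 and 0.95). Rapgef1 was also the nearest to Rxra (0.95 and 0.94), and Cebpa itself was among the 3 nearest to Rxra (0.93 and 0.93). Pparg was nearest to Sh3glb1 (0.98 and 0.93), Cebpb to Ltbr (0.94 and 0.94), and Cebpd had Nr1h3, the liver X receptor gene, among its 3 nearest (0.94 and 0.84). Klf15 was nearest to Nmb (0.84 and 0.80) and to Lpin1 (0.82 and 0.77), a phosphatidate phosphatase gene, and Stat5a to Chrd (0.86 and 0.70), so that Klf15 and Stat5a had no neighbor as close as those of the other factors.

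Among the factors themselves, pairs that varied together over the 19 mice were Cebpa with Rxra (r = 0.93), Klf4 with Stat5b (0.87), Pparg with Stat5b (0.86) and Cebpb with Cebpd (0.85). For Cebpb with Cebpd the value over all 20 mice was 0.08. SZ-A replicate 5 held the highest level of both genes, at 199 and 58.2 FPKM, and their r without that mouse was not computed. Stat5a and Stat5b, the near copies, had an r of 0.64 over 20 mice and 0.11 without NC replicate 6.

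The other genes of the pathway were taken from lists by function. Their counts are to be read against all genes tested, of which 21.0% rose and 20.1% fell in HFD against NC mice with all mice, 22.6% rose and 22.6% fell without NC replicate 6, and 21.4% rose and 21.4% fell without NC replicates 1, 2 and 6. In SZ-A against HFD mice 9.47% rose and 13.3% fell, and without SZ-A replicates 2 and 7 11.9% rose and 14.0% fell. The 30 listed target genes of PPARγ and C/EBPα include all adipocyte markers except Plin4, so the counts of both lists share genes. Of these 30, 2 rose and 4 fell in HFD against NC mice, a smaller share than the 41.1% of all genes that passed. Once NC replicate 6 was left out, 3 rose and 11 fell with a median of -0.52, against 45.2% of all genes, and without NC replicates 1, 2 and 6, 2 rose and 12 fell. Cfd, the adipocyte protease adipsin, fell by 5.26 without NC replicate 6 (adjusted p = 2.2e-06, limma), from 8176 ± 3564 FPKM (SD, n = 5) to 234 ± 118 FPKM (SD, n = 7). Retn, the hormone resistin, fell by 3.45 (adjusted p = 3.5e-05). Lep, the satiety hormone leptin, rose by 1.96 (adjusted p = 0.0028) and Fabp5, a fatty acid binding protein also made by macrophages, by 2.12 (adjusted p = 5.5e-06). The other riser there was the fatty acid transporter gene Cd36 at 0.86 (adjusted p = 0.042), named after its value was seen.

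With SZ-A, 3 of the 30 targets rose and 0 fell against HFD mice, a share near the 9.47% of all genes that rose, with a median of 0.60 against 0.03 over all genes. Cfd rose by 2.63 (adjusted p = 0.0033, limma) to 1535 ± 1026 FPKM (SD, n = 7), Retn by 2.19 (adjusted p = 0.0043), and Pck1, named after its value was seen and coding for the enzyme that feeds glycerol synthesis, by 1.62 (adjusted p = 0.018). Without SZ-A replicates 2 and 7, 12 rose and 0 fell, against 11.9% of all genes that rose. Slc2a4, the glucose transporter gene regulated by KLF15 and named outside the rule for its tie to Klf15, was at -0.62 in HFD against NC mice without NC replicate 6 (adjusted p = 0.13) and at 0.85 in SZ-A against HFD mice (adjusted p = 0.081).

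**Figure D5:**
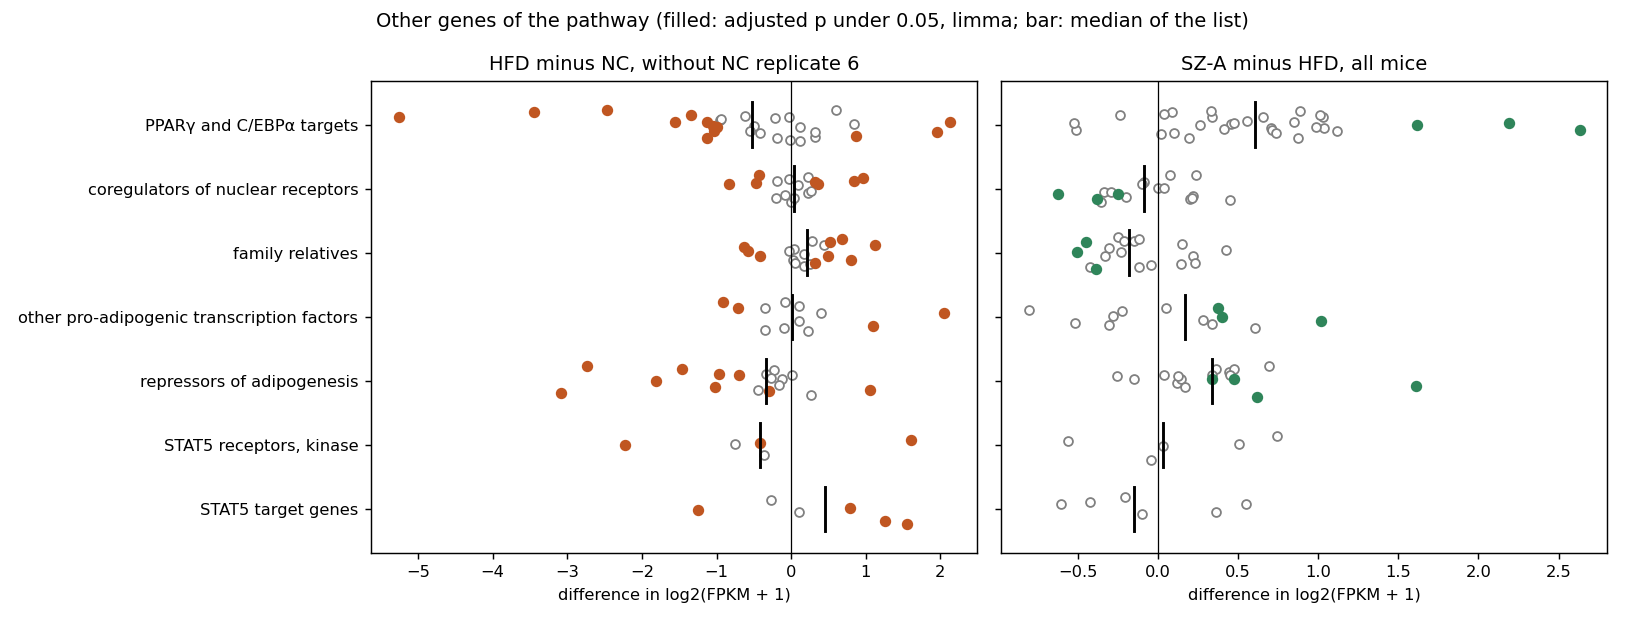
Each point is a gene of the list named at the left, placed by its difference in log2(FPKM + 1) for HFD minus NC without NC replicate 6 (left) and SZ-A minus HFD (right), filled where the adjusted p was under 0.05, with a bar at the median of the list. The targets of PPARγ and C/EBPα have medians of -0.52 and 0.60, and the repressors of -0.34 and 0.34.

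Of 17 coregulators, which nuclear receptors recruit to activate or silence genes, 2 rose and 3 fell in HFD against NC mice, a smaller share than the 41.1% of all genes that passed. There were 4 that rose and 3 that fell without NC replicate 6, and without NC replicates 1, 2 and 6, 2 and 3. The coactivator gene Ncoa3 rose by 0.86 (adjusted p = 0.00014, limma) and fell by 0.63 in SZ-A against HFD mice (adjusted p = 0.0020). The corepressor gene Nrip1 fell by 0.83 (adjusted p = 0.00096), the deacetylase gene Hdac3 by 0.53 (adjusted p = 0.0039) and Ppargc1a, the coactivator PGC-1α, by 0.40 (adjusted p = 0.032), all with all mice, and each also passed without NC replicate 6. With SZ-A 3 fell and 0 rose against HFD mice, where 13.3% of all genes fell, Ncoa6 (-0.38) and Ppargc1b (-0.25) beside Ncoa3, both named after their values were seen.

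Of 20 relatives of the factors, 18 were tested, of which 7 rose and 3 fell in HFD against NC mice, where 21.0% of all genes rose and 20.1% fell. These were 6 and 3 without NC replicate 6, and 4 and 2 without NC replicates 1, 2 and 6. In SZ-A mice 0 rose and 3 fell against HFD mice, where 13.3% of all genes fell. Without SZ-A replicates 2 and 7, 17 were tested, of which 0 rose and 3 fell, where 14.0% of all genes fell. The values given for HFD mice in these and the remaining pathway lists are with all mice, and the calls of the named genes also passed without NC replicate 6, Nfib excepted (adjusted p = 0.052). Stat6, which carries interleukin-4 signals, rose by 1.23 in HFD against NC mice (adjusted p = 1.3e-05, limma). In SZ-A against HFD mice it fell by 0.38 (adjusted p = 0.031). Klf6 rose by 1.06 (adjusted p = 0.0075) and fell by 0.50 (adjusted p = 0.012). Zfp521, a relative of Zfp423 that opposes adipogenesis, rose by 0.87 (adjusted p = 0.0074) and fell by 0.45 (adjusted p = 0.030). Without SZ-A replicates 2 and 7, Klf6 and Zfp521 passed again against HFD mice, and Stat6 did not (-0.24, adjusted p = 0.088, limma). Ppara, the PPAR of fatty acid oxidation, fell by 0.67 in HFD mice (adjusted p = 0.010) and was at 0.43 in SZ-A against HFD mice (adjusted p = 0.13).

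Of 13 other factors listed as promoting adipogenesis, 12 were tested, of which 2 fell and 0 rose in HFD against NC mice, where 20.1% of all genes fell. There were 2 that fell and 2 that rose without NC replicate 6, and without NC replicates 1, 2 and 6, 3 fell and 2 rose. The 2 that rose were Egr2 and Bhlhe40 in both, named after their values were seen. Whether each listed gene promotes adipogenesis in this tissue was not tested. In SZ-A mice 3 rose and 0 fell against HFD mice, where 9.47% of all genes rose, and 3 rose and 2 fell without SZ-A replicates 2 and 7. Mlxipl, which encodes the glucose-sensing factor ChREBP, fell by 0.83 (adjusted p = 0.029, limma) and rose by 1.02 (adjusted p = 0.014). Nfib fell by 0.41 (adjusted p = 0.030) and rose by 0.40 (adjusted p = 0.042), and Nfia rose by 0.37 in SZ-A mice (adjusted p = 0.035). Of 17 repressors of adipogenesis, 8 fell and 0 rose in HFD against NC mice, against 20.1% of all genes that fell. These were 8 and 1 without NC replicate 6, and 10 and 1 without NC replicates 1, 2 and 6. In SZ-A mice 4 rose and 0 fell against HFD mice, against 9.47% of all genes that rose, and 5 rose and 1 fell without SZ-A replicates 2 and 7. Gata3 fell by 3.17 (adjusted p = 0.00052), Irf4 by 2.30 (adjusted p = 0.0056), Id1 by 1.34 (adjusted p = 0.040) and Gata2, whose product silences Pparg in precursors, by 1.13 (adjusted p = 0.025). The NC mice spread widely, from 0.36 to 37.2 FPKM for Gata3 and from 2.79 to 85.2 FPKM for Irf4, and the part of tissue make-up in these falls was not tested. In SZ-A mice Id1 rose by 1.61 (adjusted p = 0.0088) and Gata2 by 0.47 (adjusted p = 0.025), as did Hes1 (0.62) and Nr2f2 (0.34), named after their values were seen. Nr2f2 did not pass without SZ-A replicates 2 and 7 (0.26, adjusted p = 0.12, limma).

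Upstream of the STAT5 pair, Prlr, the prolactin receptor gene, fell by 1.96 in HFD against NC mice (adjusted p = 0.00049, limma), from 5.12 ± 3.73 FPKM (SD, n = 6) to 0.31 ± 0.08 FPKM (SD, n = 7). Csf2rb, the common chain of the interleukin-3, interleukin-5 and GM-CSF receptors of myeloid cells, rose by 2.0 (adjusted p = 0.0013). These were 2 of the 5 receptor and kinase genes, against 41.1% of all genes with all mice. Without NC replicate 6, 3 passed against 45.2% of all genes, the third being Jak2. Without NC replicates 1, 2 and 6, 3 passed as well, where 21.4% of all genes rose and 21.4% fell. The third was then Ghr, and Jak2 did not pass (adjusted p = 0.053, limma). Jak2 and Ghr are named after their values were seen. Of the 6 STAT5 target genes, Socs3 rose by 1.73 (adjusted p = 0.00018) and Bcl6 by 1.41 (adjusted p = 0.00028), and Cish fell by 1.04 (adjusted p = 0.038). Without NC replicate 6, 3 rose and 1 fell, and without NC replicates 1, 2 and 6, 2 rose and 1 fell. The list does not separate targets that STAT5 raises from those it lowers. These directions thus do not measure STAT5 activity, which was not tested. Between SZ-A and HFD mice 0 of the 5 receptor and kinase genes and 0 of the 6 targets passed at adjusted p under 0.05 in limma, where 22.8% of all genes did, and 1 receptor or kinase gene rose without SZ-A replicates 2 and 7.

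The remaining marker lists were compared for the make-up of the tissue. Of 6 tested lymphocyte markers 1 rose in HFD against NC mice, and of 7 endothelial markers 0 passed in either comparison at adjusted p under 0.05. Of 5 smooth muscle markers 3 fell in HFD mice and 1 rose in SZ-A mice, and of 2 tested mesothelial markers 1 fell in HFD mice. Of the 4 epididymis markers 3 fell in HFD mice and 2 rose in SZ-A mice. All 5 smooth muscle and all 4 epididymis markers fell in HFD mice without NC replicate 6, and 4 and 4 without NC replicates 1, 2 and 6. The lymphocyte and mesothelial counts for HFD mice were equal in both, and 1 endothelial marker fell without NC replicates 1, 2 and 6 and 1 rose without SZ-A replicates 2 and 7. Mitochondrial genes made up 3.30% to 8.34% of NC libraries, 1.67% to 2.92% of HFD libraries and 1.67% to 11.6% of SZ-A libraries, the highest in SZ-A replicate 5, which also held the highest Cebpb and Cebpd values.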

How the data were processed

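The authors purified poly(A) RNA from eWAT, sequenced NEBNext Ultra libraries as paired-end reads, aligned them to GRCm38 with HISAT2 and tested groups with DESeq2, and the labels' processing notes add featureCounts 1.5.0-p3. The values used here are the FPKM the authors deposited for 14776 genes, none of them at 0 in any mouse, and each column of the table matched a sample. The labels give 6 NC mice, whereas the paper gives 7 per group. No batch or date was given in the sources used here.

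Groups were compared in pairs with limma 3.58.1 (R 4.3.3, lmFit and eBayes with a variance trend) on log2(FPKM + 1). Genes averaging under 0.1 FPKM were left out, with Benjamini-Hochberg adjustment over all genes tested. The authors' threshold, an added log2 change of 1.5, was an alternative. Reads were recovered from FPKM and the exon lengths of GENCODE M21, in which 14770 genes were found. Of values under 1000 reads, 95.9% to 96.3% per mouse were whole within 0.01 reads. They served only voom. Each mouse is 1 library, and the spread between mice sets the error. The fitting step was run on simulated independent genes with the spread of the second group of each comparison, taken without NC replicate 6. That run did not cover genes that vary together, unequal spread between groups or the fits with NC replicate 6. Promoters come from RefSeq (GRCm38.p6). Tables and plots were made with Python 3.11.15, pandas 2.3.3, NumPy 2.4.6 and matplotlib 3.10.9.

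The members and the gene lists were chosen with earlier results of these data known. Beside all 10 factors, the genes named are up to 4 per pathway list with the largest change among those past the threshold in HFD against NC or SZ-A against HFD, up to 3 per marker list, genes marked as exceptions where named, and the 3 genes with the most similar variation to each factor, of which the text gives 1 to 3. The tests were repeated with array quality weights, quantile or median-ratio scaling, voom, a robust variance estimate, pseudocounts of 0.1 or 0.01, a filter at 1 FPKM or none, the third group added to the fit, the median of the adipocyte markers in place of their mean, the replicate number as a block, the authors' threshold, each mouse left out in turn and, chosen after seeing the data, the libraries above 200 FPKM of epididymis markers left out together.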

Additional observations from a re-analysis of the deposited data

Results flagged for a closer look

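In 2 of 30 combinations of factor and group a single mouse stood apart by Dixon's test at its 95% level, which chance alone does in about 1 of 20 groups. Klf15 in HFD replicate 6, at 15.4 FPKM, was the highest of its group, and its gap to the next HFD mouse was 0.63 of the group's range against a critical value of 0.57. Without that mouse Klf15 rose by 1.68 in SZ-A against HFD mice (adjusted p = 0.00035, limma), and the groups did not overlap. HFD replicate 6 was the only HFD mouse above any SZ-A mouse. Leaving it out therefore had to part the groups and lower the HFD mean. Cebpd in SZ-A replicate 5, at 58.2 FPKM, was the highest of its group with a gap of 0.64 of the range. Without that mouse the difference of Cebpd was 0.53 in SZ-A against HFD mice (adjusted p = 0.065, limma), and over all alternatives of that result the adjusted p ran from 0.0022 to 0.21.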

How the results depend on the processing

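The level of Klf15 fell in HFD against NC mice under all 25 alternatives (adjusted p from 6.2e-06 to 0.0069, limma) and rose in SZ-A against HFD mice under all 26 (0.00034 to 0.012). Relative to adipocyte markers, Klf15 did not pass in HFD against NC mice with all mice or under 18 of 20 alternatives. On that scale it passed in SZ-A against HFD mice under none of 21 (adjusted p from 0.15 to 0.53, limma). The number of factors past the threshold moved as follows, and the cause was not tested. Where no share of all genes is given above for a setting, its count is not read as a result about the factors. Over the alternatives the lowest adjusted p in limma was 0.046 for Stat5a in HFD against NC mice. In SZ-A against HFD mice it was 0.048 for Cebpa and 0.049 for Zfp423, and in SZ-A against NC mice 0.032 for Zfp423. Klf4 and Stat5b passed in level under none. For HFD against NC, 1 with all mice, it was 4 with array quality weights, 3 without the libraries high in epididymis markers, and 1 to 3 when single mice were left out, the 3 without NC replicate 6. For SZ-A against HFD, 1 with all mice, it was 0 with the log2 threshold of 1.5, 2 with quantile normalization, voom or the replicate block, 6 with array quality weights, 4 without the libraries high in epididymis markers, and 1 to 2 without single mice, the 2 being reached without HFD replicate 6 or SZ-A replicate 2. For SZ-A against NC, 0 with all mice, it was 2 with array quality weights and 0 to 1 without single mice, the 1 without NC replicate 6. Relative to adipocyte markers it was 2 for HFD against NC without the libraries high in epididymis markers and 0 to 3 without single mice, the 3 without NC replicate 6. For SZ-A against HFD on that scale it was 2 with a pseudocount of 0.1, 4 without the libraries high in epididymis markers, and 0 to 4 without single mice: 1 without HFD replicate 2 or 4, 2 without HFD replicate 6 or SZ-A replicate 7, and 4 without SZ-A replicate 2.

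Signs turned only for factors that had not passed. When single mice were left out, HFD minus NC ran from -0.86 to 0.22 for Pparg, -0.018 to 0.31 for Rxra and -0.23 to 0.026 for Stat5a, SZ-A minus HFD from -0.16 to 0.073 for Klf4 and -0.076 to 0.40 for Cebpb, and SZ-A minus NC from -0.49 to 0.59 for Pparg, -0.034 to 0.92 for Klf4, -0.11 to 0.15 for Stat5a and -0.087 to 0.24 for Stat5b. Relative to adipocyte markers, HFD minus NC ran from -0.24 to 0.071 for Pparg and -0.27 to 0.60 for Stat5a, and SZ-A minus HFD from -0.45 to 0.044 for Cebpd. With array quality weights Rxra was at -0.074 in HFD against NC mice, Klf4 at 0.25 in SZ-A against HFD mice, and Pparg and Stat5a at -0.068 and -0.13 in SZ-A against NC mice. Without the libraries high in epididymis markers, HFD minus NC was -0.17 for Cebpa, -0.26 for Rxra, -0.34 for Klf4 and -0.11 for Stat5b, SZ-A minus HFD was 0.20 for Klf4, SZ-A minus NC was -0.57 for Pparg, -0.14 for Klf4 and -0.15 for Stat5b, and Stat5a relative to the markers was 1.04 in HFD against NC mice. Quantile normalization put Stat5a at -0.010 in SZ-A against NC mice and at 0.0029 relative to the markers in HFD against NC mice.

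The replicate numbers that the labels share across groups did not pair the mice, since the correlation of deviations between same-numbered mice ran from -0.41 to 0.58. With the number as a replicate block Cebpd passed in SZ-A against HFD mice (0.73, adjusted p = 0.032), the factors called there came to 2, and relative to adipocyte markers Pparg and Stat5a turned to 0.065 and 0.039 in HFD against NC mice. Every value of the 10 factors rested on at least 80 reads.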
